A study of Mus musculus with 2 samples.

Results

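Il2ra encodes the alpha chain of the interleukin 2 receptor, the surface protein CD25. The data around it are the reads of 2 chromatin immunoprecipitation sequencing (ChIP-seq) libraries over 110 bins of 1 kb on mouse chromosome 2, from 11520001 to 11630000 (mm9), out of 2246042 covered bins in the genome. The gene lies on the plus strand of this window, from about 11564001 to about 11614000, with its bounds given to the nearest 1000 bp. The locus was chosen from measured values, since a wide domain of H3KAc over IgG was already known there, so every comparison below is a description of the same reads, with no test.

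The samples were Th2 cells, the helper T cells that make interleukin 4. Spleen T cells of C57BL/6 mice that carried CD4 and CD62L were stimulated for 5 days with interleukin 4 at 10 ng/ml and an antibody to interferon gamma at 2 µg/ml, followed by 3 days of rest. Chromatin was fixed in 0.4% formaldehyde for 10 minutes and precipitated with 7 µg of antibody, and fragments near 200 bp were sequenced. The H3KAc library used an antibody to acetylated lysines of histone H3, and the IgG library used polyclonal rabbit IgG, which measures non-specific background. Both came from the same kind of cell, no other cell type or condition was sequenced, and each group has 1 library, so no difference has a replicate check. Whether the cells carried the marker genes of Th2 cells or of other cell types was not analysed here, because no annotation of mm9 was in hand.

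The alpha chain has little signalling activity of its own. Together with the beta chain (Il2rb) and the common gamma chain (Il2rg) it forms the high-affinity receptor for interleukin 2, whose signal runs through the kinases JAK1 and JAK3 to the transcription factor STAT5. Resting conventional T cells make little CD25, antigen receptor signalling induces it through factors such as NF-kB, and interleukin 2 then maintains it through STAT5, while regulatory T cells carry it constantly. Acetylation of histone H3 marks promoters and enhancers in use, and regulatory elements of Il2ra are known both upstream of the gene and in its first intron.

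The promoter is shown because NF-kB is a known inducer of the gene and because the domain described below spans the approximate gene start. The mm9 bin that holds the promoter was not determined, and the bin just before the approximate start was not called enriched below. RefSeq's promoter table (GRCm38.p6) gives the 250 bases before the start at chr2:11642542-11642791 on the plus strand. That build is not the one the reads were aligned to, so these coordinates cannot be set beside the mm9 positions elsewhere in the text. Capitals mark 2 overlapping matches to the NF-kB motif, searched by name on both strands, 201 to 192 and 200 to 191 bases before the start.
Il2ra promoter: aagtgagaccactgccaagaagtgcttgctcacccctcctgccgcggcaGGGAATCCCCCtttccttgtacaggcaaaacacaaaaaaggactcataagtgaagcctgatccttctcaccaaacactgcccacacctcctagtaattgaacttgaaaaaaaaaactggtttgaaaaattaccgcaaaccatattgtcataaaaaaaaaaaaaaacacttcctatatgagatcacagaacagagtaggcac

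Of the 32851 promoters in the table, 7.25% hold an NF-kB match. The bases printed held no match on either strand to the GATA motif AGATAA (in 9.99% of promoters), the STAT motif TTCNNNGAA (7.02%) or the AP-1 motif TGANTCA (6.75%). Nor did they match the NFAT core GGAAAA (20.4%), CAGGAA, a form of the Ets site (25.7%), or TATAAA (12.4%). A STAT site with 4 bases in its middle (5.85%) and the CArG motif (1.47%), both searched by name, were not found either. Only these forms were searched, so a missing match does not show that a factor has no site here. The promoter had 42.4% G+C and 3 CG dinucleotides, against medians of 52.4% and 6 over the table, and 17.9% of promoters had as low a G+C share. Its longest run of A was 15 bases, and a run of A or T that long was found in 1.64% of promoters. The promoter table also holds the nearest protein-coding genes, Rbm17 (a splicing factor) before Il2ra and Il15ra (the alpha chain of the interleukin 15 receptor) after it. The Rbm17 promoter had 60.8% G+C and 18 CG, and the 2 Il15ra promoters had 52.8% with 2 CG and 60.4% with 12 CG. Where these genes start in mm9 was not placed.

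Over the whole genome the H3KAc library held 21845451 reads at 19711169 distinct positions and the IgG library 7626703 reads at 1897666 distinct positions. A position is a 5′ end on 1 strand, counted 1 time however often it was read and moved 100 bp along its strand. It is called a read below, and levels are in reads per 1000000 distinct positions (RPM) of the same library. Covered bins averaged 8.78 H3KAc reads and 0.845 IgG reads, which is 0.445 RPM in each library. IgG depth therefore sets the precision: 60.5% of covered bins had no IgG read. All intervals are exact 95% intervals (Poisson for levels, conditional binomial for ratios) and cover counting error only.

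The locus carried 2039 H3KAc reads and 54 IgG reads. H3KAc stood at 0.940 RPM per kb and IgG at 0.259 RPM per kb (0.194 to 0.338), a ratio of 3.64 (2.78 to 4.86). Acetylation was spread over much of the window instead of lying in a single peak, as the plot of both libraries along the locus shows. The lowest bin held 1 H3KAc read, the median bin 14 and the highest 177, which is 0.0507, 0.710 and 8.98 RPM, against a median of 6 reads over all covered bins. At least 10 H3KAc reads were found in 73 of the 110 bins (66.4%), against 31.4% of covered bins in the genome. At least 20 were found in 36 bins (32.7%, against 8.88%) and at least 30 in 20 bins (18.2%, against 2.98%). The plus strand gave 1051 H3KAc reads and the minus strand 988.

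**Figure D1:**
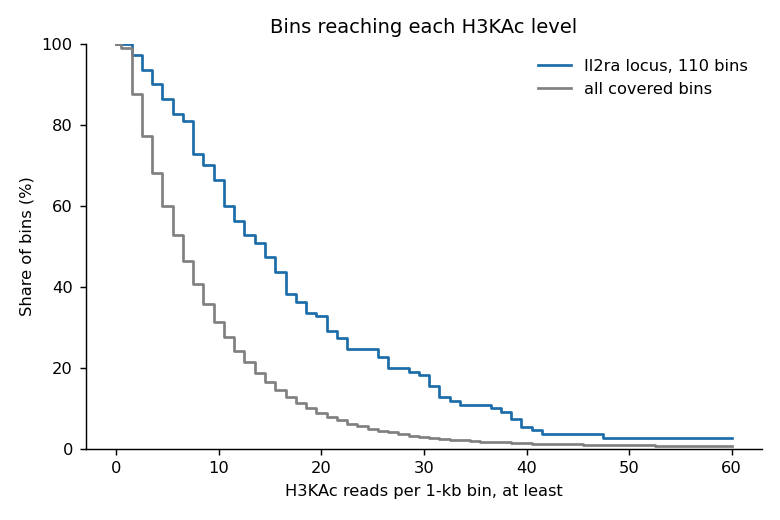
Share of 1-kb bins (y axis, %) that hold at least the number of H3KAc reads on the x axis, for the 110 bins of the Il2ra locus and for all 2246042 covered bins. The locus curve lies above the genome curve at 10 reads (66.4% and 31.4%), at 20 (32.7% and 8.88%) and at 30 (18.2% and 2.98%).

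No IgG read lay in 76 of the 110 bins (69.1%), 23 bins held 1, and 11 held 2 or more, up to 4 reads. The ratio in a single bin therefore rests on very few IgG reads. The IgG reads were also copied more often: its 54 positions were read 209 times (3.87 reads per position, at most 12), against 2235 reads at the 2039 H3KAc positions (1.10 per position, at most 4). Over the genome the IgG library had 4.02 reads per position and the H3KAc library 1.11, so the copying is not particular to this locus. Of the IgG positions of the locus, 26 had another on the opposite strand within 200 bp. No such share is given for H3KAc or for the genome, so nothing is read from it.

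**Figure D2:**
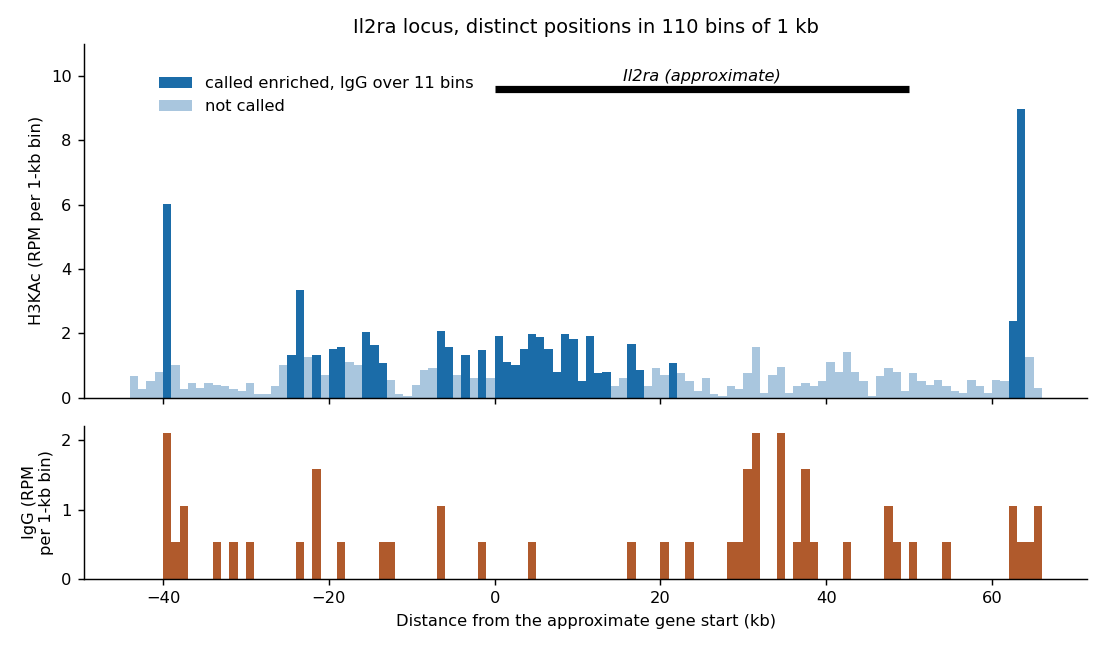
H3KAc (top) and IgG (bottom) in RPM per 1-kb bin, by distance in kb from the approximate gene start, with the gene drawn as a black bar. Dark bars are the 32 bins called enriched with IgG over 11 bins. The highest bins are narrow peaks 40 kb before and 63 kb after the start (6.04 and 8.98 RPM). The bins from 7 kb before to 14 kb after the start lie between 0.507 and 2.08 RPM, with IgG in 3 of 21.

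Among 7 stretches into which the window was divided, the level of H3KAc was highest over the first 10 kb of the gene, although single bins elsewhere were higher. That stretch held 307 reads, or 1.56 RPM per kb (1.39 to 1.74), and 1 IgG read, or 0.0527 RPM per kb (0.00133 to 0.294), a ratio of 29.6 (5.27 to 1171). Its 10 bins were all well filled, with 16 reads in the lowest, 33 in the median and 39 in the highest, and 7 of the 10 held 30 or more. Among 253917 covered windows of 10 kb across the genome, with a median of 55 H3KAc reads, 1.42% held at least 307. On the 5-kb scale the level was 1.51 RPM per kb (149 reads) from 0 to 5 kb inside the gene and 1.60 RPM per kb (158 reads) from 5 to 10 kb inside. Of the other 5-kb steps, 60 to 65 kb after the start stood higher, at 2.74 RPM per kb. The step that opens 40 kb before the start was similar, at 1.61 RPM per kb, and each of these 2 contains a narrow peak described below. From 25 to 20 kb before the start the level was also similar, at 1.59 RPM per kb (157 reads, 1.35 to 1.86). The intervals of the first and the second 5 kb of the gene overlap. In the second 5 kb no IgG read was found, which allows up to 0.389 RPM per kb.

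The 10 kb before the gene start were lower than the first 10 kb of the gene. They held 208 H3KAc reads, or 1.06 RPM per kb (0.917 to 1.21), and 3 IgG reads, a ratio of 6.67 (2.25 to 32.6). H3KAc before the start was 0.678 times that of the first 10 kb inside (0.565 to 0.811). The bins here alternated more, from 8 reads to 41, around a median of 17.5. The next 10 kb upstream had almost the same level, with 210 H3KAc reads, or 1.07 RPM per kb (0.926 to 1.22), and 3 IgG reads, a ratio of 6.74 (2.27 to 32.9). The 10 kb before the start held 0.991 times the H3KAc of these next 10 kb (0.814 to 1.21), so the 10-kb sums showed no fall with distance. Their 5-kb steps were uneven. From the start outwards they stood at 0.944, 1.17, 0.680 (0.527 to 0.863) and 1.45 RPM per kb (1.22 to 1.71). In the genome, 5.52% and 5.37% of 10-kb windows held as many H3KAc reads as these 10-kb stretches.

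Further upstream, 44 to 20 kb before the start, a few bins held most of the signal. The stretch had 433 H3KAc reads, or 0.915 RPM per kb (0.831 to 1.01), and 14 IgG reads, or 0.307 RPM per kb, a ratio of 2.98 (1.76 to 5.49), and the median bin held 9 reads. The single bin from 11524001 to 11525000 accounted for 119 of the 433 reads. Without it, H3KAc was 0.693 RPM per kb and the ratio 3.02 (1.62 to 6.37).

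Inside the gene the level was lower beyond the first 10 kb. The second 10 kb had 173 H3KAc reads, or 0.878 RPM per kb (0.752 to 1.02), and 1 IgG read, and the last 30 kb had 353 H3KAc reads, or 0.597 RPM per kb (0.536 to 0.663), and 24 IgG reads, or 0.422 RPM per kb (0.270 to 0.627). The first 10 kb was 1.78 times the second in H3KAc (1.47 to 2.15) and 2.61 times the last 30 kb (2.23 to 3.05). The last 30 kb was the 1 stretch of 7 in which the interval of the ratio to IgG included 1, with a ratio of 1.42 (0.936 to 2.24). Both libraries moved there: this stretch held 17.3% of the H3KAc reads of the locus and 44.4% of its IgG reads. The 20 kb centred on the gene start held 1.31 RPM per kb of H3KAc (1.20 to 1.42), against 0.667 RPM per kb in the remaining 40 kb of the gene, a fold of 1.96 (1.73 to 2.22). IgG ran the other way, with 4 reads in the 20 kb and 25 in the remaining 40 kb, a fold of 0.320 (0.0809 to 0.927).

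**Figure D3:**
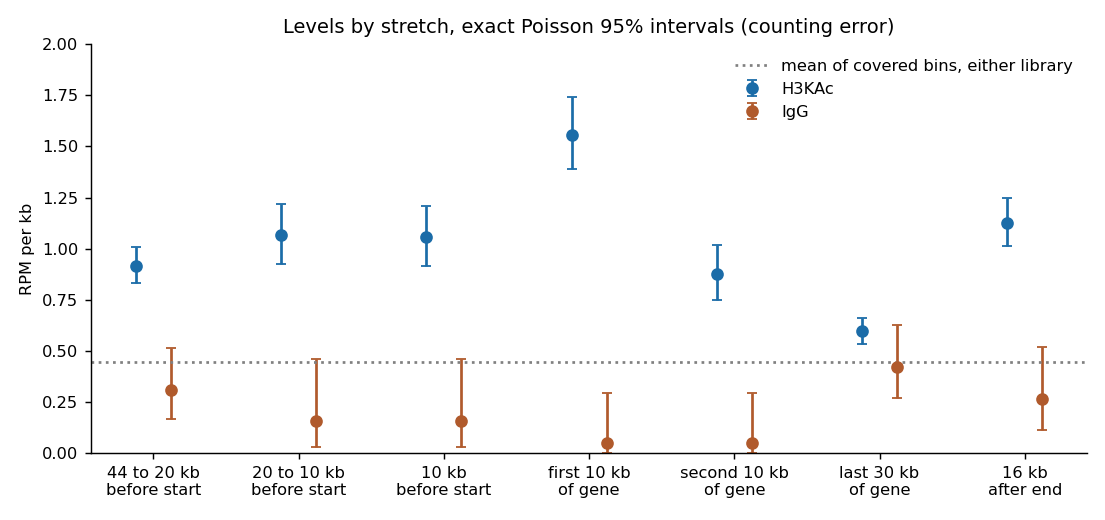
Level in RPM per kb (y axis) of H3KAc (blue, left of each pair) and IgG (brown) in 7 stretches of the Il2ra locus, with exact Poisson 95% intervals, and the mean of covered bins, 0.445 RPM, as a dotted line. H3KAc is highest in the first 10 kb of the gene (1.56 RPM per kb) and lowest in the last 30 kb (0.597), where IgG is highest (0.422). The outermost stretches each contain 1 high bin, which lifts H3KAc to 0.915 and 1.13.

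The IgG reads of the last 30 kb were clustered. From 30 to 39 kb inside the gene, a piece picked after its values were seen, H3KAc had 108 reads and IgG 16, or 0.609 and 0.937 RPM per kb, a ratio of 0.650 (0.383 to 1.18). Of the 3 bins of the locus with the most IgG reads, 2 lay here. The bin from 11595001 to 11596000 held 31 H3KAc and 4 IgG reads, and the bin from 11598001 to 11599000 held 19 and 4. In RPM, IgG was at 2.11 in both, above H3KAc at 1.57 and 0.964. Elsewhere in the last 30 kb the levels differed again: 40 to 45 kb inside the gene H3KAc held 92 reads, or 0.934 RPM per kb (0.753 to 1.15), and IgG 1 read.

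The 16 kb after the gene end had 355 H3KAc reads, or 1.13 RPM per kb, and 8 IgG reads, a ratio of 4.27 (2.14 to 9.97). The bin from 11627001 to 11628000 held 177 of the 355. Without that bin the stretch was at 0.602 RPM per kb, close to the last 30 kb of the gene, with a ratio of 2.45 (1.16 to 6.18).

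The 10 bins with the most H3KAc reads lay on both sides of the gene start and beyond the gene end, with 4 before the gene, 4 inside it and 2 after it. The highest, at 11627001 to 11628000, had 8.98 RPM of H3KAc (7.71 to 10.4) and 1 IgG read, a ratio of 17.0 (3.02 to 677). Only 0.0231% of covered bins held as many H3KAc reads. The second, at 11524001 to 11525000, had 6.04 RPM (5.00 to 7.22) and 4 IgG reads, a ratio of 2.86 (1.09 to 10.7). Both are narrow: with their neighbours on each side, the levels over 3 kb were 4.21 RPM per kb after the gene and 2.62 RPM per kb before it. They lie within 5 kb of the ends of the window and were not assigned to a gene. Without both bins, the ratio over the locus was 3.43 (2.58 to 4.65). The third, at 11540001 to 11541000, 24 kb before the start, had 66 reads, or 3.35 RPM (2.59 to 4.26), and 1 IgG read.

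The other 7 of these 10 bins held 38 to 47 H3KAc reads. The bin next to the highest, at 11626001, held 47. Upstream of the gene, the bin at 11557001 held 41 and the bin at 11548001 held 40. Inside the gene, the bins at 11568001 and 11572001 held 39 each, and those at 11564001 and 11575001 held 38 each. The bin at 11564001 begins at the approximate gene start and was level with the bins 4, 8 and 11 kb inside. The start is known only to 1000 bp, and the bin before it, at 11563001, held 12 reads. Between 0.974% and 1.55% of covered bins in the genome held as many reads as these 7 bins. No IgG read was found in 4 of the 10 bins.

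A bin was tested when its H3KAc reads and the IgG reads it was set against came to at least 5, and it was called enriched when the lower bound of the H3KAc over IgG ratio exceeded 2. With the IgG of the same bin, 1 of 95 tested bins of the locus was called, the one at 11627001, where 0.0836% of tested bins in the genome were called (1178 of 1409765). With IgG taken over the 11 bins centred on each bin, 32 of 109 tested bins were called (29.4%), against 1.54% of tested bins in the genome (30354 of 1969526). The locus was chosen on this contrast, so nothing is read from the difference between these shares. By lower bound, the weakest called bin, at 11539001, had 26 H3KAc reads and a bound of 2.08. The strongest bin not called, at 11541001, had 25 and a bound of 1.99, both over 5 IgG reads in 11 bins. These counts are no general limit, because a call depends on the local IgG as well as on H3KAc. The bin at 11574001 was called with 10 H3KAc reads and 0 IgG reads in 11 bins. The bin at 11595001 was not called with 31 H3KAc reads and 14 IgG reads in 11 bins.

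Called bins with at most 1 bin between them formed 7 runs in the window. The widest ran for 21 kb, from 11557001 to 11578000, that is from 7 kb before the gene start to 14 kb inside the gene. It held 551 H3KAc reads, or 1.33 RPM per kb (1.22 to 1.45), and 4 IgG reads, or 0.100 RPM per kb (0.0274 to 0.257), a ratio of 13.3 (5.15 to 48.8). It contained 27.0% of the H3KAc reads of the locus on 19.1% of its length. Its bins ranged from 10 reads to 41 around a median of 29, and 18 of the 21 were called. The 3 that were not, at 11559001, 11561001 and 11563001, held 14, 12 and 12 H3KAc reads and all lay in the 5 kb before the gene start. IgG reads were found in 3 of the 21 bins, and the IgG sum over 11 bins stayed between 0 and 3.

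The other runs were shorter. The 7-kb run from 11539001 to 11546000 had 218 H3KAc and 5 IgG reads, a ratio of 4.20 (1.77 to 13.1), and the 3-kb run from 11548001 to 11551000 had 93 and 1. The 2-kb run from 11626001 to 11628000 had 224 and 3, a ratio of 7.19 (2.43 to 35.1). Of the remaining 3 runs, 2 lay inside the gene, at 11580001 to 11582000 (50 and 1 reads) and at 11585001 to 11586000 (21 and 0). The last was the single bin at 11524001.

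The width of the domain depends on the IgG level used for it. With IgG set to the genome mean of covered bins in place of the local level, an alternative added after the data were seen, 11 of the 110 bins were called and the widest run was 2 kb. H3KAc in the 21-kb run was thus moderate in each bin, and the local IgG level, which was low, enters its call. What set the low IgG level was not tested.

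H3KAc alone divided the same part of the locus into 2 long runs. A run of consecutive bins with at least 10 H3KAc reads, a definition chosen after the data were seen, spanned 23 kb from 11555001 to 11578000 around the gene start. Another spanned 14 kb from 11538001 to 11552000, which is 26 to 12 kb before the start. The run around the start had 586 H3KAc reads, or 1.29 RPM per kb (1.19 to 1.40), and 4 IgG reads, or 0.0917 RPM per kb. The upstream run had 384 H3KAc reads, or 1.39 RPM per kb (1.26 to 1.54), and 7 IgG reads, or 0.264 RPM per kb. Since the same minimum in every bin defines both runs, their levels are not compared. In the upstream run, where the IgG sum over 11 bins was 2 to 6, 8 of 14 bins were called. Between the 2 runs lay 3 kb with 11 H3KAc reads, or 0.186 RPM per kb, and no IgG read. Of 272071 such runs in the genome, 0.749% were at least as long as 23 kb and 2.02% at least as long as 14 kb.

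At 100-bp steps, local maxima of the H3KAc signal were listed as summits. A summit is a 100-bp step whose mean over 500 bp was the highest within 1 kb on each side and at least 3 times the mean of covered bins, 1.34 RPM per kb. The locus had 21, with 8 before the gene start, 7 in the first 20 kb of the gene, 5 in the last 30 kb and 1 after the end. Neighbouring summits were 1.20 to 20.2 kb apart, with a median of 2.90 kb. The rule itself allows no other summit within 1 kb, and its threshold is close to the mean level of the 21-kb run, 1.33 RPM per kb. Counting variation along a flat stretch can therefore also give summits, and whether the lower ones exceed it was not tested. The 2 highest were the narrow peaks, at 11.97 RPM per kb after the gene end (118 reads in 500 bp, at 11627501) and at 8.52 RPM per kb far upstream (84 reads, at 11524501). The third, at 11540201 and thus -23.75 kb from the start, reached 5.18 RPM per kb (3.85 to 6.80). The next 7 were much alike, between 2.54 and 3.35 RPM per kb with overlapping intervals. In order of height they lay at 11575301 and 11548901, then at 11568101 and 11557501, and then at 11580601, 11544901 and 11595201. The last of these lay in the IgG cluster of the gene body, with 4 IgG reads in the surrounding 1 kb, and the other 6 had 0 or 1.

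**Figure D4:**
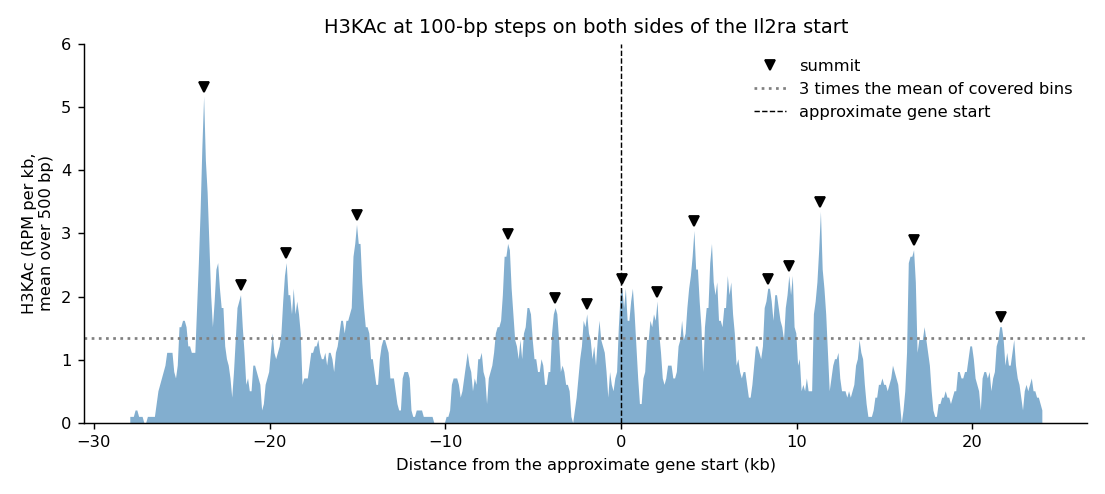
H3KAc in RPM per kb, averaged over 500 bp at 100-bp steps (y axis), against distance in kb from the approximate gene start (x axis, dashed line at 0). Triangles mark summits and the dotted line the summit threshold of 1.34 RPM per kb. The axis runs from -28 to 24 kb, which leaves out the 2 highest summits. The summit at the approximate start (2.13 RPM per kb) is lower in value than those 4.15 and 11.3 kb inside the gene (3.04 and 3.35) and that at -23.75 kb (5.18).

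A summit also lay at the approximate gene start, at 11564001 to 11564100, with 21 reads and 2.13 RPM per kb (1.32 to 3.26). The start is known only to 1000 bp, so the distance between the true start and this summit is not known. This summit ranked 13th of the 21, with no IgG read within the surrounding 1 kb. The summits 11.3 kb inside the gene (3.35 RPM per kb, 2.31 to 4.70) and 4.15 kb inside it (3.04 RPM per kb, 2.05 to 4.35) were higher in value. Their intervals overlap that of the summit at the approximate start. Both lie in the gene body, but exons and introns were not placed on mm9 here, so neither was assigned to an intron. The longest stretch without an H3KAc read was 1428 bp, at 11532358 to 11533785 before the upstream run. Gaps of 1176 bp at 11590131 to 11591306 inside the gene and of 1171 bp at 11553100 to 11554270 between the 2 long runs followed.

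Set beside other domains of the genome, the 21-kb run was wide and had no dominant bin, but it was not high. With IgG over 11 bins, 22829 runs were called, of which 75.2% were 1 kb wide. At least 5 kb was reached by 255 runs and at least 10 kb by 20, and the Il2ra run was second in width under this rule. Among these 20 it ranked 13th in H3KAc per kb, where the range was 0.469 to 5.71 RPM per kb and the median 1.65. Its highest bin was 1.56 times its mean bin, the third lowest of the 20, which ranged from 1.33 to 3.23 with a median of 1.91. This measure does not register low bins. The bins of the Il2ra run held 10 to 41 reads, with a variance 4.39 times their mean, so they were not uniform. Its IgG level was the 10th lowest of the 20, whose median was 0.107 RPM per kb. The rank in width belongs to the rule with local IgG. By H3KAc alone, 2039 of the 272071 runs of bins with at least 10 reads were at least as long as the 23-kb run around the start.

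The 3 runs nearest to it in width served as the closest patterns. The 17-kb run on chromosome 11 from 86391001 to 86408000 had 2.51 RPM per kb of H3KAc, a ratio of 8.09 and a highest bin 2.08 times its mean. The 27-kb run on chromosome 14 from 54809001 to 54836000 had 1.84 RPM per kb, a ratio of 7.85 and a highest bin 3.23 times its mean. The 15-kb run on chromosome 15 from 66621001 to 66636000 had 2.22 RPM per kb, a ratio of 10.6 and a highest bin 1.98 times its mean. The Il2ra run was the lowest of the 4 in H3KAc per kb, in IgG per kb and in its highest bin over its mean. These are values of runs selected by the same rule, with no test between them.

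**Figure D5:**
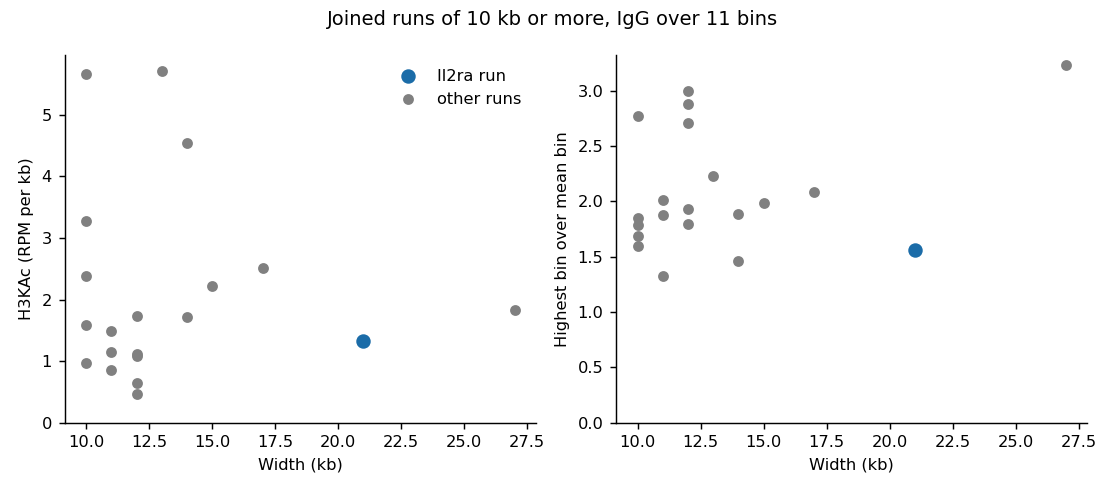
The 20 joined runs of 10 kb or more, by width in kb (x axes), with mean H3KAc in RPM per kb (left) and the highest bin divided by the mean bin (right). The Il2ra run (blue, 21 kb) is second in width, at 1.33 RPM per kb below the median of 1.65, and its highest bin is 1.56 times its mean, against a median of 1.91.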

How the data were processed

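Each row of the deposited files is the position of 1 aligned read, 35 bases long, with its chromosome and strand. Reads were aligned with Bowtie to mm9, per the submitters' processing notes. Not given in the sources used here are its version, any filters and the treatment of multiple alignments. All counts were computed from these positions.

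Reads that shared chromosome, strand and 5′ end counted as 1, since copies from PCR carry no molecular identifier, and were moved 100 bp along the strand. RPM is per 1000000 distinct positions of a library. Ratios have exact conditional binomial (Clopper-Pearson) 95% intervals. With 1 library per group no p-value was computed. Calling, with a lower bound above 2, and joining over at most 1 bin were run on all covered bins. Calling was also tried on simulated counts with single bins of chromosome 2 raised, and joining on a short made-up series. No wide domain over low IgG was simulated, so neither trial checks the 21-kb run.

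The named bins are the 10 with the most H3KAc reads, those called with the IgG of the same bin and the 3 with the most IgG reads. The 10 highest summits and the 3 runs nearest in width are named too. The locus, bins, stretches, motifs and rules were chosen with earlier results of these data known. The 30 to 39 kb piece, the 12-kb piece upstream and the runs of bins with at least 10 reads were chosen after seeing the data. So were the narrow peaks left out and IgG at the genome mean. The summit at the approximate gene start, the bins at the calling threshold, the read gaps and the 5-kb steps fall outside that rule. They were also chosen after their values were seen. Other genes of the interleukin 2 pathway were not analysed here.

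Alternatives were every deposited read, reads not moved, 1 strand, other IgG scaling and spans, bounds above 4 and above 1, 500-bp bins and runs not joined. The scripts ran on Python 3.11.15 with scipy 1.17.1, numpy 2.4.6, matplotlib 3.10.9 and pandas 2.3.3.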

Additional observations from a re-analysis of the deposited data

How the results depend on the processing

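Of 56 alternative values, 42 stayed within the counting interval of a ratio or within 1.5 times of a count or width. The 14 beyond that are counts of calls and widths. None reversed, but a count or a width has no direction and could not. Some intervals are also wide, as from 5.27 to 1171 for the first 10 kb of the gene, so staying within them is a weak check. The 42 include 40 bins of 500 bp called with IgG over 11 bins, set against 32 bins of 1 kb. Bins of unlike width are compared there, so that label does not show that the length called stayed the same. The ratios with few IgG reads still moved within their intervals. That of the first 10 kb of the gene, 29.6, was 19.4 with every deposited read and 15.2 with minus-strand reads. That of the 10 kb before the start, 6.67, was 9.91 with every read, 10.5 with plus-strand reads alone and 4.76 with minus-strand reads alone. The 1 bin called with the IgG of the same bin became 21 with every deposited read, 3 with a lower bound above 1, and 0 with a lower bound above 4 or with minus-strand reads. The 32 bins called with IgG over 11 bins became 49 with every read, 58 with a lower bound above 1, 14 with one above 4, 19 with reads of either strand, 21 with IgG over 5 bins and 11 with IgG at the genome mean. The widest run of 21 kb became 9 kb with plus-strand and 11 kb with minus-strand reads, and 2 kb with IgG at the genome mean; it was 14 kb with runs not joined, and 16 and 29 kb with IgG over 5 and 21 bins. With every read, copies enter as if independent, and 1 strand holds fewer reads; the cause of the other changes was not tested. The first 10 kb of the gene had no IgG read on the plus strand, so its ratio has no value with plus-strand reads. The 54 IgG reads of the locus limit every ratio. No paired analysis was possible because each group has 1 library.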
